A study of Mus musculus with 83 samples.

Results

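Adcyap1, Adm, Nmu, Spp1 and F3, which encode 4 secreted peptides or proteins and the cell surface protein tissue factor, were followed across single mouse ovarian follicles stimulated to ovulate in culture. These 5 of the 21572 gene rows of the deposited count table were chosen by their measured values, namely the time after the stimulus at which each was highest and its difference between vitrified and fresh follicles. Both are therefore given as descriptions, with no test. Vitrification is a form of cryopreservation in which tissue is cooled into a glass without ice crystals. All follicles came from CD-1 mice, an outbred strain, and were labelled WT and hCG, the 0 h follicles included. The labels give no age. Vitrified and fresh follicles alike were grown for 8 days in 0.5% alginate with recombinant FSH. Those measuring 300 to 350 µm were then stimulated with human chorionic gonadotropin (hCG) at 1.5 IU/ml, in a medium that also held EGF at 10 ng/ml and FSH at 10 mIU/ml. Collection at 0, 1, 4 and 8 h gave 15, 14, 7 and 12 vitrified and 18, 6, 7 and 4 fresh follicles. Each of the 83 libraries came from 1 follicle and was made by Smart-Seq2, a full-length cDNA protocol without molecular identifiers, and Nextera XT, which does not mark strand.

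hCG acts on the receptor for luteinizing hormone and starts the sequence that ends in ovulation. In it, granulosa cells leave the growth programme, the cumulus around the oocyte expands, and the follicle wall is remodelled and opens. Adcyap1 encodes PACAP, a peptide that raises cyclic AMP through the receptors encoded by Adcyap1r1, Vipr1 and Vipr2 and is known to be made by granulosa cells of the preovulatory follicle. Adm encodes adrenomedullin, a vasodilator peptide whose receptor is made of Calcrl with Ramp2 or Ramp3. Nmu encodes neuromedin U, a ligand of Nmur1 and Nmur2. Spp1 encodes osteopontin, an adhesive glycoprotein bound by integrins and CD44. F3 encodes tissue factor, the receptor for factor VII that starts the extrinsic pathway of blood clotting.

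Library names fall into 3 sets, which are called here the baseline set (all and only the 0 h libraries), the shared set (all fresh follicles of 1, 4 and 8 h, with 5, 7 and 3 vitrified ones) and the vitrified-only set (9 vitrified follicles of 1 h and 9 of 8 h). Every step that starts at 0 h therefore crosses sets, and time and set cannot be told apart there. Vitrified and fresh follicles were compared within a set. Even there each group had a row letter of its own. The numbers that end the library names repeat between vitrified and fresh follicles of 1 h and between fresh follicles of 4 h and 8 h, so the shared set holds at least 2 number series, which the labels do not explain. Kind and series cannot be told apart at 1 h, and the names do not show whether the comparisons at 4 h and 8 h stay within 1 series. The totals at 1 h did not overlap, with 3478459 to 5597289 counts in vitrified follicles of the shared set and 1719239 to 3049417 in fresh ones. Neither the animals nor the runs of culture are labelled, so a p-value here weighs a difference against the scatter of single follicles only, and that scatter may be technical. Estimated counts per library summed to between 682200 and 6504588, and values are CPM (counts scaled to library size) with edgeR's TMM factors unless TPM is named. The summed level of 11 granulosa markers lay between 14680 and 114900 CPM, of 11 theca markers between 49.66 and 3743, of 10 oocyte markers between 4.845 and 164.2, of 12 macrophage markers between 0 and 127.3, and of 10 endothelial markers between 1.553 and 156.2. The granulosa sum had a median of 18340 CPM in vitrified 8 h follicles of the shared set and 16090 in fresh 8 h follicles, against 92930 and 81060 at 1 h. A library is a bulk sample of a follicle, in which fewer cells of a type and less RNA per cell cannot be told apart. At 8 h the vitrified library of the shared set called replicate 3 stood apart from its group for Nmu and F3, and values that rest on it are given with and without it.

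The 5 genes lie on 4 chromosomes of build GRCm38 and are protein coding in GENCODE vM21. Adcyap1 spans chr17:93199017-93206537 and F3 chr3:121723537-121735048, both on the plus strand, and no other annotated gene overlaps either. Adm spans chr7:110627661-110629820 on the plus strand, and the antisense gene Gm28863 overlaps it without sharing exonic bases and is not analysed here. Nmu spans chr5:76333495-76363788 on the minus strand, where exons of 4930432L08Rik lie opposite its own. Spp1 spans chr5:104435118-104441050 on the plus strand, and exons of the gene model Gm42793 overlap it on the same strand. Without strand, reads of such overlapping genes cannot be told apart, but 4930432L08Rik had at most 4 counts in any library and Gm42793 at most 11. Promoter windows are shown for the 4 genes whose window held a motif searched for, to set genes that were highest at different times side by side. They run from 250 bases before to 50 after the RefSeq start (GRCm38.p6), are written along the gene's strand, and carry motif matches in capitals.
F3, chr3:121723287-121723586, plus strand: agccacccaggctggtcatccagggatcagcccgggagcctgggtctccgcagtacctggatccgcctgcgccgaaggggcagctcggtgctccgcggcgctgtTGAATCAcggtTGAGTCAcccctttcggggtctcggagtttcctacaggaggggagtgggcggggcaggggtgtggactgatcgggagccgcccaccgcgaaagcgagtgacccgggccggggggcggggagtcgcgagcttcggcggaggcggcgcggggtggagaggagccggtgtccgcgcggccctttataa
Adcyap1, chr17:93198767-93199066, plus strand: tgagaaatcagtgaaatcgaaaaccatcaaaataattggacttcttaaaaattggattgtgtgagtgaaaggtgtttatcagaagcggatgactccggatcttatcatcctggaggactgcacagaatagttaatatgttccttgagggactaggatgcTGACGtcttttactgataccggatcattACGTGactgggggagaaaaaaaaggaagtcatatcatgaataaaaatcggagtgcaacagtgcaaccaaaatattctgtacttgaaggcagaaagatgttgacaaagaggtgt
Nmu, chr5:76363728-76364027, minus strand: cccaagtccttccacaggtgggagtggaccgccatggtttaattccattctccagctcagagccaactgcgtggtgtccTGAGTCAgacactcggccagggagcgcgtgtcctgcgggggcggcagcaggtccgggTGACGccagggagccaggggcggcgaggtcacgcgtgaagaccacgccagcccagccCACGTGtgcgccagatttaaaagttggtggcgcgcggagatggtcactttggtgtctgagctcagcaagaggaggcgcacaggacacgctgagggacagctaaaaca
Spp1, chr5:104434861-104435160, plus strand: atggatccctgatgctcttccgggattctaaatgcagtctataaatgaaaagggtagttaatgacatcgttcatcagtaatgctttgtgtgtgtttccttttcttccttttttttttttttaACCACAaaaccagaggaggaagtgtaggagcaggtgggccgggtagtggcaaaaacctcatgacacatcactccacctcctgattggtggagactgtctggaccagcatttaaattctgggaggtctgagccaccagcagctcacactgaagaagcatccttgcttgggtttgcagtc

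Positions of matches count from the start site, and both strands were searched. The F3 window held 2 matches to the AP-1 motif TGANTCA, which began at positions -146 and -135. Nmu held 1 such match, at -171, and 7.81% of the 32851 RefSeq promoter windows of this length held the motif. The cyclic AMP response element TGACGTCA was in none of the windows of the 5 genes, and in 1.79% of all windows. Its half-site TGACG was found in Adcyap1 at -91 and in Nmu at -114, against 20.8% of all windows. The hypoxia element core ACGTG was found in Adcyap1 at -63 and in Nmu, where it was read on both strands of the palindrome CACGTG at -57, against 19.6% of all windows. Spp1 held the reverse complement of the RUNX motif TGTGGT at -128, against 16.8% of all windows. The 1 Adm window held none of these letters. RefSeq gives 2 windows each for Adcyap1 and Spp1, and the one near more of the GENCODE start sites is shown. These are matches of letters, not sites of binding.

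F3 was highest at 1 h, Adcyap1 and Nmu at 4 h, and Spp1 and Adm at 8 h, in vitrified and in fresh follicles alike. For Adm in vitrified follicles this rests on the 3 libraries of the shared set. The 9 vitrified-only libraries of 8 h had 0 to 2.33 CPM of Adm, inside the 0 to 3.62 CPM of vitrified follicles at 0 h. Levels between genes were compared in TPM, which is per length, each gene at its time of highest mean. In vitrified follicles of the shared set F3 reached 1080 ± 341 TPM (SD, n = 5), Spp1 891 ± 237 (n = 3), Adcyap1 184 ± 272 (n = 7), Adm 53.9 ± 37.8 (n = 3) and Nmu 8.70 ± 3.69 (n = 7). In fresh follicles Spp1 reached 1430 ± 578 TPM (n = 4), F3 1070 ± 189 (n = 6), Adcyap1 272 ± 154 (n = 7), Adm 66.5 ± 31.3 (n = 4) and Nmu 9.91 ± 2.82 (n = 7). Neighbours in the order overlapped between libraries throughout the vitrified follicles. In fresh follicles the ranges of Spp1 and F3 overlapped, whereas those of Spp1 and Adcyap1, of Adcyap1 and Adm, and of Adm and Nmu did not. Nmu, the lowest of the 5, thus peaked at a level far under that of tissue factor or osteopontin in the same tissue.

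**Figure D1:**
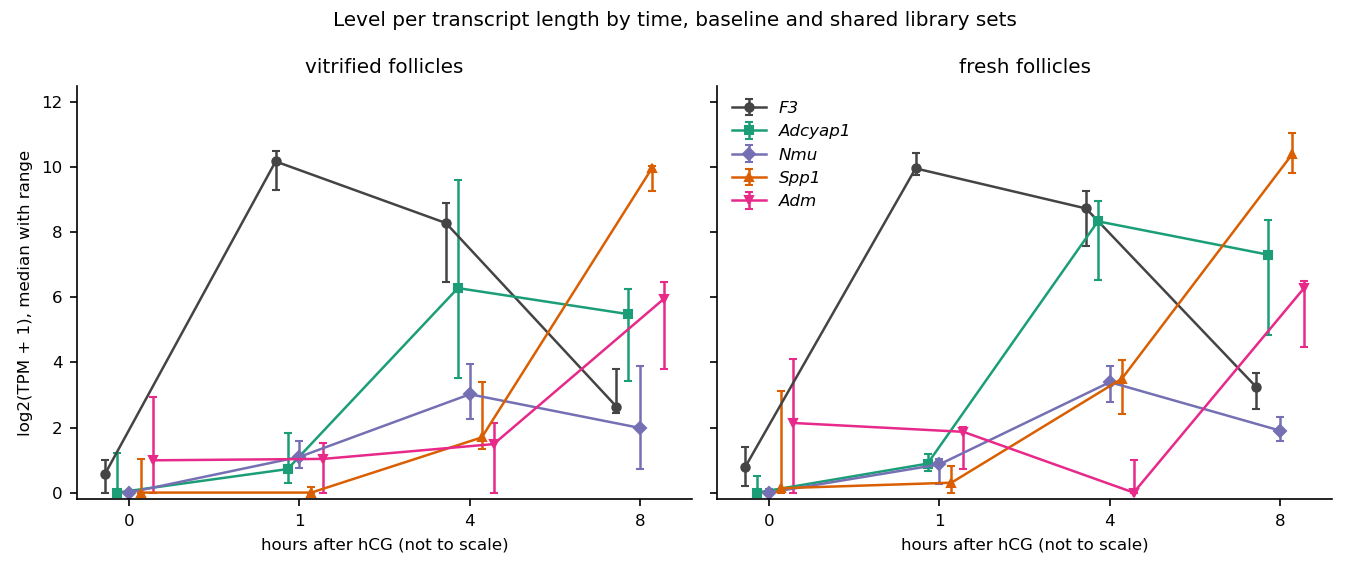
Level of each gene by hours after hCG, as log2(TPM + 1) with the median of the libraries and their whole range, for vitrified (left; baseline and shared sets) and fresh follicles (right). F3 tops its course at 1 h, Adcyap1 and Nmu at 4 h, Spp1 and Adm at 8 h in both panels.

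In no comparison of vitrified with fresh follicles at one time did the ranges of the 2 kinds separate for any of the 5 genes. The share of all 11889 tested genes called between vitrified and fresh follicles, in either direction at an adjusted p under 0.05 in edgeR's quasi-likelihood test, was 0.967% at 0 h, 0.555% at 1 h, 0.118% at 4 h and 2.06% at 8 h. Between neighbouring times, libraries separated for some of the 5 genes in every step. From 0 to 1 h, 2 of the 5 lay wholly higher in vitrified follicles and 3 in fresh follicles, where 21.5% and 19% of all genes were called higher and 22% and 23.1% lower. From 1 to 4 h, 3 lay wholly higher and F3 wholly lower in each kind, where 20.6% of genes in vitrified and 21.9% in fresh follicles were called higher, and 25.9% and 24.5% lower. From 4 to 8 h, Spp1 and Adm lay wholly higher in each kind, F3 wholly lower in each kind and Nmu in fresh follicles only, where 22% of genes in vitrified and 20.8% in fresh follicles were called higher, and 15% and 15.7% lower. All these shares count edgeR calls, not ranges that separate, and the share of all genes whose ranges separate was not computed. The rule used these comparisons, so nothing is read from the counts. All 5 genes passed the filter on low counts, and did so through the groups in which they are high.

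**Figure D2:**
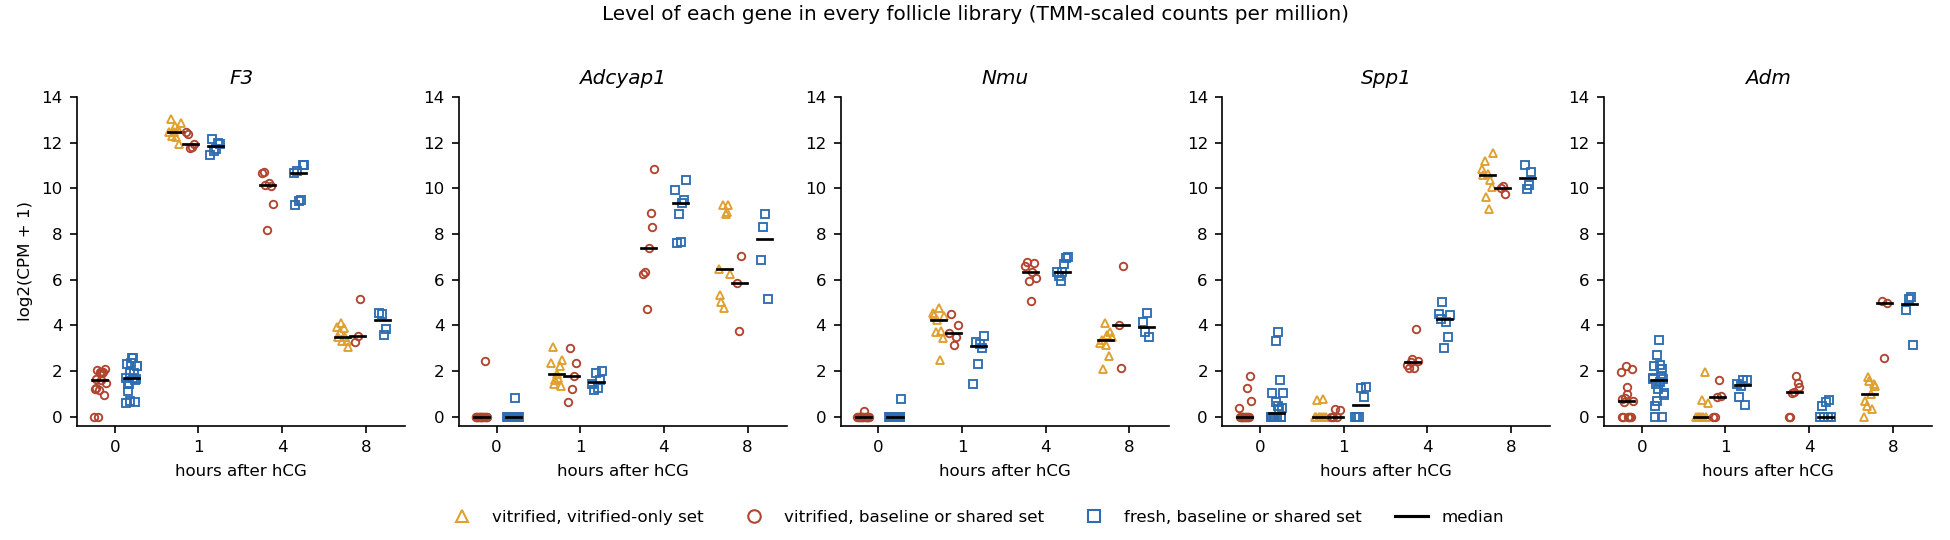
Level of each gene in every library, as log2(CPM + 1), by hours after hCG, with vitrified follicles left of fresh ones at each time. Circles are vitrified libraries of the baseline and shared sets, triangles the vitrified-only set, squares fresh libraries, and bars medians; the Adm panel shows the triangles at 8 h lying under the other libraries of that time.

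F3 was close to silent before hCG and the most abundant of the 5 transcripts 1 h later. At 0 h its lowest, median and highest values were 0, 2.03 and 3.26 CPM in vitrified follicles, against 0.527, 2.26 and 4.95 CPM in fresh ones. At 1 h the 5 vitrified follicles of the shared set had 5640, 5330, 3460, 3570 and 3970 CPM, against 2840, 3640 and 4520 CPM as the lowest, median and highest of the 6 fresh ones. Of the 5 vitrified values 2 lie above the highest fresh one, and the kinds overlap at both times. At 4 h F3 ran over 286, 1130 and 1660 CPM in vitrified follicles, against 616, 1640 and 2070 CPM in fresh ones. At 8 h the 3 vitrified follicles had 8.71, 10.5 and 34.4 CPM, against 22.2, 21.7, 10.8 and 13.4 CPM in the 4 fresh ones. One vitrified follicle, replicate 3, is the highest of these 7, and the other 2 are the lowest.

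The log2 difference of F3 between vitrified and fresh follicles was -0.59 ± 0.31 (SE) at 0 h, 0.27 ± 0.33 at 1 h, -0.32 ± 0.29 at 4 h and 0.07 ± 0.44 at 8 h. Without replicate 3 the 8 h difference was -0.80. From 0 to 1 h F3 differed by 11.21 ± 0.34 on the log2 scale in vitrified follicles (2370-fold) and by 10.36 ± 0.29 in fresh ones (1310-fold). From 1 to 4 h it differed by -2.01 ± 0.32 in vitrified and -1.43 ± 0.31 in fresh follicles, and from 4 to 8 h by -5.90 ± 0.54 and -6.29 ± 0.48. The vitrified value of that step was -6.75 without replicate 3. At 8 h every follicle still lay above the highest of the 0 h follicles. In the vitrified-only set F3 ran over 3880, 5650 and 8300 CPM at 1 h and over 7.29, 10.4 and 16.3 CPM at 8 h, a difference of -9.03 ± 0.37.

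Adcyap1 followed F3 by one sampling time and had the largest SD relative to its mean of the 5 genes at its peak. At 0 h a count was found in 1 of 15 vitrified and 1 of 18 fresh libraries. That vitrified library, the shallowest of all, had 3 counts, or 4.36 CPM, inside the range of the vitrified 1 h follicles. At 1 h the vitrified follicles of the shared set had 0.55, 6.93, 1.35, 2.42 and 4.13 CPM, against 1.24, 1.85 and 3.01 CPM as the lowest, median and highest of fresh ones. The fresh values lie inside the vitrified range. At 4 h the lowest, median and highest were 25.4, 165 and 1860 CPM in vitrified follicles, against 194, 659 and 1300 CPM in fresh ones. Both the lowest and the highest follicle of that time were vitrified. The highest, replicate 7, held 3851 of the 6172 counts of its group, and the next vitrified follicle had 476 CPM. Vitrified follicles at 75.6, 80.6, 25.4 and 165 CPM lay under all fresh ones. No fit was run without replicate 7, so its weight in the 4 h mean and differences of Adcyap1 is not given. At 8 h the 3 vitrified follicles had 56.4, 12.6 and 131 CPM, against 115, 317, 473 and 34.6 CPM in fresh follicles, the vitrified lying in the lower part of a common range.

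Between vitrified and fresh follicles Adcyap1 differed by 0.54 ± 0.99 on the log2 scale at 1 h, -0.59 ± 0.56 at 4 h and -1.81 ± 0.85 at 8 h, and no fold is given at 0 h, where neither kind summed to more than 3 counts. With the vitrified-only set counted among the vitrified follicles, the 8 h difference was -0.09, so that it rests on which vitrified libraries are taken. It lay between -2.78 (without vitrified replicate 3) and -1.22 (without fresh replicate 3) when single libraries were left out. The level at 1 h was 40.7 times that at 0 h in vitrified follicles (exact 95% interval 13.1 to 204) and 62.4 times in fresh ones (15.7 to 542). These are ratios of summed counts, in which deeper libraries weigh more. The intervals cover counting error only, so they are no test between follicles. Mean CPM was 3.08 at 1 h and 0.291 at 0 h in vitrified follicles, and 2.01 and 0.0422 in fresh ones. From 1 to 4 h Adcyap1 differed by 7.15 ± 0.90 in vitrified follicles (142-fold) and by 8.28 ± 0.89 in fresh ones (311-fold). From 4 to 8 h it differed by -2.68 ± 0.84 in vitrified and -1.46 ± 0.69 in fresh follicles, with overlapping ranges in each kind.

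Nmu had its highest mean together with Adcyap1 at 4 h, when it spread far less between follicles, but was already well above its starting level at 1 h. At 0 h all vitrified libraries together held 1 count of Nmu and all fresh libraries 2. At 1 h the vitrified follicles of the shared set had 11.6, 21.6, 7.85, 10.1 and 15.2 CPM, against 1.66, 7.58 and 10.5 CPM as the lowest, median and highest of fresh ones. Of these vitrified values 3 lie above the highest fresh one, and 2 lie within the fresh range. At 4 h Nmu ran over 32.9, 79.6 and 108 CPM in vitrified follicles, against 61.1, 79.0 and 125 CPM in fresh ones, with medians that nearly coincide. At 8 h the 3 vitrified follicles had 15.3, 3.42 and 96.1 CPM, against 16.7, 12.0, 22.5 and 10.3 CPM in the 4 fresh ones. Replicate 3 alone of the 7 follicles kept the level of 4 h.

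Nmu differed between vitrified and fresh follicles by 1.01 ± 0.40 on the log2 scale at 1 h, -0.22 ± 0.31 at 4 h and 1.36 ± 0.44 at 8 h. The 8 h difference was -0.77 without replicate 3. Over 0 h the 1 h level was 545 times as high in vitrified follicles (exact 95% interval 96.9 to 21600) and 197 times in fresh ones (52.8 to 1650). From 1 to 4 h Nmu differed by 2.56 ± 0.38 in vitrified and 3.79 ± 0.39 in fresh follicles, and from 4 to 8 h by -1.01 ± 0.41 and -2.59 ± 0.41. Without replicate 3 the vitrified difference from 4 to 8 h was -3.12.

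Spp1 stayed near 0 through 1 h, appeared at 4 h and was the most abundant of the 5 transcripts at 8 h. At 0 h a count was found in 4 of 15 vitrified libraries, the highest at 2.44 CPM, against 9 of 18 fresh libraries, the highest at 12.2 CPM. At 1 h it was found in 2 of 5 vitrified follicles of the shared set and 3 of 6 fresh ones, with no value over 1.5 CPM. At 4 h the lowest, median and highest were 3.4, 4.23 and 13.4 CPM in vitrified follicles, against 7.08, 18.2 and 31.9 CPM in fresh ones. Of the 7 vitrified follicles, 6 lie below the lowest fresh one, and the highest of them lies within the fresh range. At 8 h the 3 vitrified follicles had 1030, 1080 and 846 CPM, against 2050, 1010, 1120 and 1690 CPM in the 4 fresh ones. Of the 3 vitrified values 1 lies below the fresh range and 2 lie near its lower end.

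The log2 difference of Spp1 between vitrified and fresh follicles was -3.03 ± 0.81 at 0 h, -1.77 ± 0.56 at 4 h and -0.58 ± 0.64 at 8 h, the latest being -0.06 with the vitrified-only set counted in. At 0 h 2 of the 18 fresh follicles, at 12.2 and 8.92 CPM, held 68 of the 87 counts of their group, and the other 16 had at most 2.04 CPM. At 1 h the ratio of summed counts was 0.225, from 2 counts in vitrified and 7 in fresh follicles. Macrophages are a known source of osteopontin in other tissues. The summed level of their 12 markers had a median of 1.581 CPM in vitrified follicles (range 0 to 55.61) and 16.68 in fresh ones (1.613 to 127.3) at 0 h. It was 8.99 CPM in vitrified (0.8212 to 24.15) and 15.58 in fresh follicles (0.6418 to 61.79) at 4 h, and 44.37 (37.5 to 44.63) and 30.7 (21.47 to 42.09) at 8 h. Lyz2, the lysozyme gene, had medians of 0.533 CPM in vitrified and 15.23 in fresh follicles at 0 h and 34.36 and 23.69 at 8 h. By these medians it was most of the sum, except in vitrified follicles of 0 h, where 9 of 15 had a count of it. Ptprc, Adgre1, Cd68, Tyrobp, Fcer1g, Mrc1 and Cx3cr1 had medians of 0 in both kinds at 0 h. Csf1r, C1qa, C1qb and C1qc had medians of 0 in vitrified follicles, against 0.1808, 0.1375, 0.5265 and 0.5484 CPM in fresh ones. A count of these was found in 5, 3, 5 and 4 of 15 vitrified and 9, 9, 13 and 10 of 18 fresh libraries. The part of macrophage RNA in the differences at 0 and 4 h was not tested. From 4 to 8 h Spp1 differed by 7.54 ± 0.65 in vitrified (186-fold) and by 6.35 ± 0.59 in fresh follicles (81.6-fold).

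Adm, the lower of the pair that was highest at 8 h, stayed under 10 CPM in every follicle up to 4 h. Its lowest, median and highest values at 0 h were 0, 0.594 and 3.62 CPM in vitrified follicles, against 0, 2.0 and 9.14 CPM in fresh ones. At 1 h the vitrified follicles of the shared set had 0, 0, 0.812, 2.02 and 0.869 CPM, against 0.409, 1.61 and 2.05 CPM as the lowest, median and highest of fresh ones. At 4 h Adm ran over 0, 1.11 and 2.43 CPM in vitrified follicles, against 0, 0 and 0.64 CPM in fresh ones, which held 3 counts in all. The 2 kinds overlap at each of these times, and 1 fresh follicle of 0 h held 71 of the 173 counts of its group. At 8 h the 3 vitrified follicles of the shared set had 32.3, 4.86 and 30.5 CPM, against 24.6, 34.6, 36.7 and 7.73 CPM in the 4 fresh ones. Each kind had one low follicle and the rest between 24.6 and 36.7 CPM.

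Adm differed between vitrified and fresh follicles by -1.15 ± 0.45 on the log2 scale at 0 h, -0.90 ± 0.88 at 1 h and -0.20 ± 0.69 at 8 h. At 4 h the ratio of summed counts was 5.02, from 16 counts in vitrified and 3 in fresh follicles, whose ranges overlap. From 4 to 8 h Adm differed by 4.28 ± 0.71 in vitrified follicles (19.4-fold). In fresh ones the ratio of summed counts was 113 (exact 95% interval 38.4 to 550, counting error only). The 0 h difference of Adm, like that of Spp1, was taken between kinds whose macrophage, endothelial and theca marker sums had different medians. The endothelial median was 13.83 CPM in vitrified (1.553 to 71.31) and 31.25 in fresh follicles (4.839 to 93.99). The theca median was 840 CPM in vitrified (319.9 to 2597) and 1661 in fresh follicles (342.6 to 3247), but its markers did not all go that way. Cyp17a1 had medians of 164.7 CPM in vitrified and 66.34 in fresh follicles, Insl3 50.37 and 31.89, and Gli1 0.9612 and 0.8737. The medians of Tcf21, Hhip, Ptch1, Acta2, Col1a1, Col1a2, Col3a1 and Dcn were lower in vitrified follicles. The part of macrophage, endothelial and theca RNA in the difference was not tested.

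**Figure D3:**
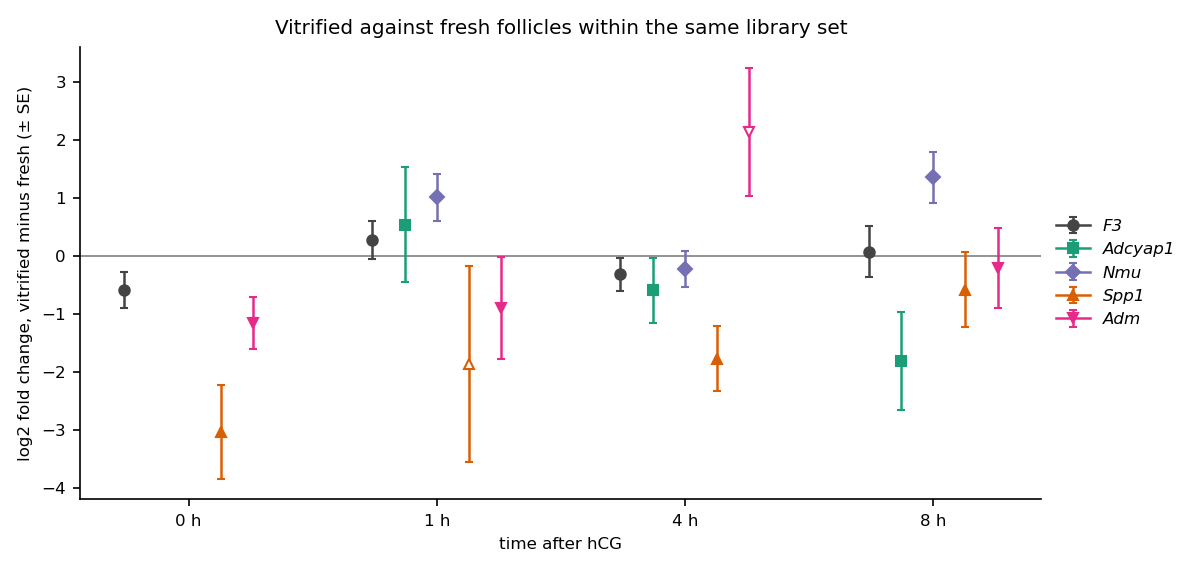
Log2 difference of vitrified minus fresh follicles with its SE for each of the 5 genes by hours after hCG, from the fit over all libraries. Open symbols mark a kind with 3 or fewer counts in all, and Adcyap1 and Nmu at 0 h are not drawn; the largest negative value is Spp1 at 0 h (-3.03, with most fresh counts in 2 of 18 follicles) and the largest positive one not on such counts is Nmu at 8 h (1.36, and -0.77 without 1 library).

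The vitrified follicles of 1 h and 8 h came in 2 library sets, which allowed the 5 genes to be compared among follicles of the same kind and time. This comparison was added after the values were seen. The levels at 8 h took part in the choice of the genes, and Adm passed the filter through the 8 h libraries in which it is high, so the values are given without a test. Of all genes, 23.4% were called between the vitrified-only and the shared set at 8 h and 1.37% at 1 h. Adm averaged 1.08 ± 0.827 CPM in the vitrified-only set (SD, n = 9; lowest 0, median 1.02, highest 2.33), against 32.3, 4.86 and 30.5 CPM in the 3 follicles of the shared set. The highest follicle of the vitrified-only set lies under the lowest of the shared set. The log2 difference was -4.30 ± 0.60, and it lay between -4.80 and -3.96 when each shared follicle was left out in turn. The fresh follicles of that time, all in the shared set, averaged 25.9 ± 13.2 CPM (n = 4), so that the 8 h level of Adm in vitrified follicles depended on the set. With both sets pooled, the difference from fresh follicles was -2.02 instead of -0.20.

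Nmu was lower in the vitrified-only set by -2.06 ± 0.36 on the log2 scale, with 3.29, 9.41 and 16.1 CPM as its lowest, median and highest there. That difference was 0.07 without replicate 3 of the shared set, so 1 follicle decides it. Adcyap1 ran the other way, with 25.7, 87.7 and 618 CPM in the vitrified-only set, against 56.4, 12.6 and 131 CPM in the shared set. Its log2 difference was 2.03 ± 0.79, and lay between 1.51 and 2.98 when shared follicles were left out. In the vitrified-only set Adcyap1 was split, with 4 follicles between 469 and 618 CPM and 5 between 25.7 and 87.7 CPM. Spp1 ran over 544, 1550 and 2960 CPM in that set, a log2 difference of 0.66 ± 0.58, and F3 differed by -0.68 ± 0.37, or 0.19 without replicate 3.

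At 1 h the vitrified-only set minus the shared set gave log2 differences of 0.44 ± 0.31 for F3, 0.31 ± 0.35 for Nmu and 0.16 ± 0.88 for Adcyap1, while Adm and Spp1 were at or near 0 in each set. Marker levels differed between the sets at 8 h as well. The macrophage sum had a median of 1.851 CPM in the vitrified-only set (0.5202 to 41.95), with 4 of 12 markers at 0 in all 9 follicles, Ptprc among them, against 44.37 (37.5 to 44.63) in the shared set, where 1 of 12 was at 0. Lyz2 made up most of it, with medians of 1.542 CPM in the vitrified-only set and 34.36 in the shared set. The macrophage sums overlapped between the sets, as did the endothelial ones. The endothelial sum had a median of 18.98 CPM in the vitrified-only set (11.44 to 85.76) and 37.07 in the shared set (7.5 to 87). Their part in the set differences was not tested, and the sources used here do not say what the sets stand for.

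**Figure D4:**
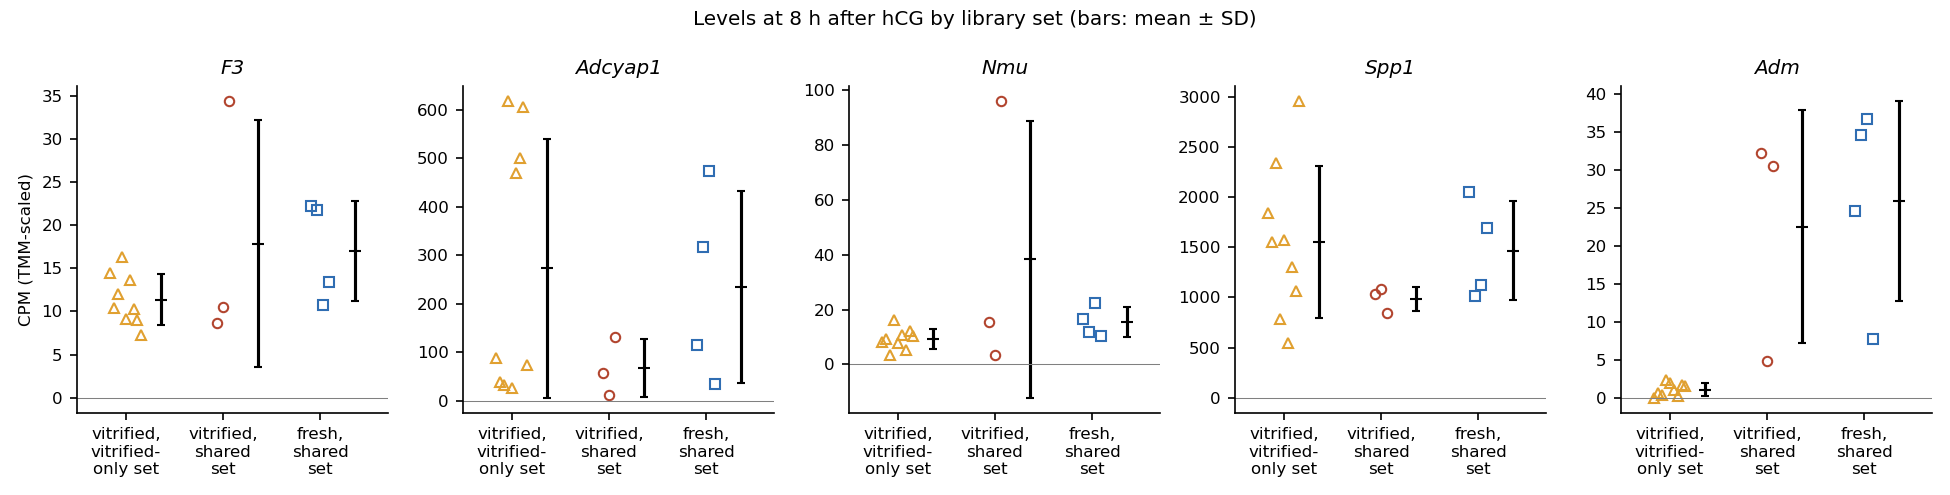
Level in CPM of each gene at 8 h in vitrified follicles of the vitrified-only set (n = 9), vitrified follicles of the shared set (n = 3) and fresh follicles of the shared set (n = 4), every follicle a point, bars the mean and SD. For Adm the 9 follicles of the vitrified-only set all lie at or under 2.33 CPM, and for Nmu a single shared-set follicle at 96.1 CPM stands above the rest.

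Whether follicles with more of one transcript also held more of another was examined within each group and set of at least 6 libraries, over 27 pairs of the 5 genes, with exact permutation tests. No pair passed Benjamini-Hochberg adjustment over the 27, while 6 had an unadjusted p under 0.05 by Pearson's r and 5 by Spearman's rho. The smallest p was that of Adcyap1 and F3 in the 9 vitrified follicles of 1 h in the vitrified-only set, with Pearson's r 0.86 (exact p = 0.00311, adjusted p = 0.0839) and Spearman's rho 0.88 (exact p = 0.00308, adjusted p = 0.083). Pearson's r was 0.67 without the 2 follicles farthest from the median. Adcyap1 had only 2 to 11 counts in each of these 9 follicles. Both genes were taken as TMM-scaled CPM, and no correlation was run on TPM, so the part of the scaling is not given. Nmu and F3 in vitrified follicles of 4 h had r 0.90 (exact p = 0.0137, adjusted p = 0.185), which was 0.51 without the 2 farthest follicles. Spearman's rho of that pair was 0.71 (exact p = 0.0881, adjusted p = 0.264). Adcyap1 and Spp1 in the vitrified-only set at 8 h had r -0.73 (exact p = 0.0265, adjusted p = 0.212), which was -0.66 without the 2 farthest follicles.

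Over all 83 libraries, the genes most like each of the 5 were found by Pearson's r of log2 CPM, as a description that reflects the time course and the library sets they share. F3 was closest to Eif4e (r 0.979), which encodes the cap-binding translation factor, Zfp703 (0.978) and Sik1 (0.977), a kinase gene induced by cyclic AMP in many tissues. Nmu was closest to Npy (0.977), the gene of neuropeptide Y, Btc (0.97), the gene of the EGF-like factor betacellulin, and Tnfaip6 (0.97), whose product stabilises the cumulus matrix. Adcyap1 was closest to Pitrm1 (0.94), Alcam (0.939), an adhesion molecule gene, and Klc1 (0.937), and Spp1 to Asgr1 (0.953), Arl4d (0.919) and Ostf1 (0.919). Among the 5 genes themselves, Adcyap1 and Nmu had r 0.834 and F3 and Nmu 0.76.

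Adm had no match of that closeness. Its nearest genes were Ergic1 (r 0.686), Xpnpep2 (0.661) and Ankrd37 (0.636), a target of hypoxia-inducible factor in other cells. These 3 genes also parted between the sets at 8 h. Ergic1 averaged 55.6 ± 8.05 CPM in the vitrified-only set (SD, n = 9), 152 ± 18.5 in vitrified follicles of the shared set (n = 3) and 137 ± 21.2 in fresh follicles (n = 4), and the first of these did not overlap the others. Ankrd37 averaged 0.654 CPM in the vitrified-only set (0 to 1.93), 7.08 in the vitrified follicles of the shared set (1.97 to 14.3) and 6.34 in fresh follicles (3.91 to 9.78). They were picked for their likeness to Adm in these libraries, so this is no separate evidence.

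The other genes of the 5 pathways were taken from 6 lists of 75 genes, which held relatives and receptors of PACAP, adrenomedullin and neuromedin, peptide processing enzymes, osteopontin's relatives and receptors, and the tissue factor pathway. Of these 75, 54 had a row, 33 passed the filter on low counts and 21 did not. Between vitrified and fresh follicles the edgeR test called 1 of the 33 at 0 h, 0 at 1 h, 0 at 4 h and 2 at 8 h, all 3 lower in vitrified follicles. Over all genes the shares called were 0.967%, 0.555%, 0.118% and 2.06%. At an unadjusted p under 0.05 there were 5, 4, 5 and 6, DESeq2 called 1, 0, 0 and 2, and limma 2, 0, 1 and 4. The median log2 difference of the 33 was -0.08, -0.07, -0.01 and 0.15 at 0, 1, 4 and 8 h, against -0.02, 0.05, 0.01 and 0.10 over all genes. The test of whether the step between times differed between the kinds called 0 of the 33 from 1 to 4 h (3 at an unadjusted p under 0.05; 0.0421% of all genes) and 1 from 4 to 8 h (0.993% of all genes).

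More of the 33 were called between times. From 0 to 1 h, 13 of the 33 rose and 1 fell in vitrified follicles and 16 rose and 0 fell in fresh ones. Shares that rose were 39.4% in vitrified and 48.5% in fresh follicles, against the 21.5% and 19% of all genes. Shares that fell were 3.03% and 0.00%, against 22% and 23.1% of all genes. This step crosses library sets, and the lists were chosen with earlier results of these data known, so nothing is read from these shares. The median log2 difference of the 33 was 0.79 in vitrified and 0.93 in fresh follicles, against -0.05 and -0.11 over all genes, although total-count scaling moves the median of all genes by -0.60 and -0.49. From 1 to 4 h, 12 rose and 7 fell in vitrified follicles (36.4% and 21.2%, against 20.6% and 25.9% of all genes). In fresh ones 11 rose and 4 fell (33.3% and 12.1%, against 21.9% and 24.5% of all genes). The medians of that step were 0.35 and 0.22 against -0.11 and -0.03. From 4 to 8 h, 7 rose and 8 fell in vitrified follicles (21.2% and 24.2%, against 22% and 15% of all genes). In fresh ones 5 rose and 5 fell (15.2% and 15.2%, against 20.8% and 15.7% of all genes). The medians of that step were 0.13 and -0.03 against 0.17 and 0.12, where total counts move all genes by 0.57 and 0.63. Counts within single lists, given next, stand against these same shares of all genes, and no list was tested as a set. Adjusted p-values of the genes that follow are edgeR's, over all 11889 genes.

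**Figure D5:**
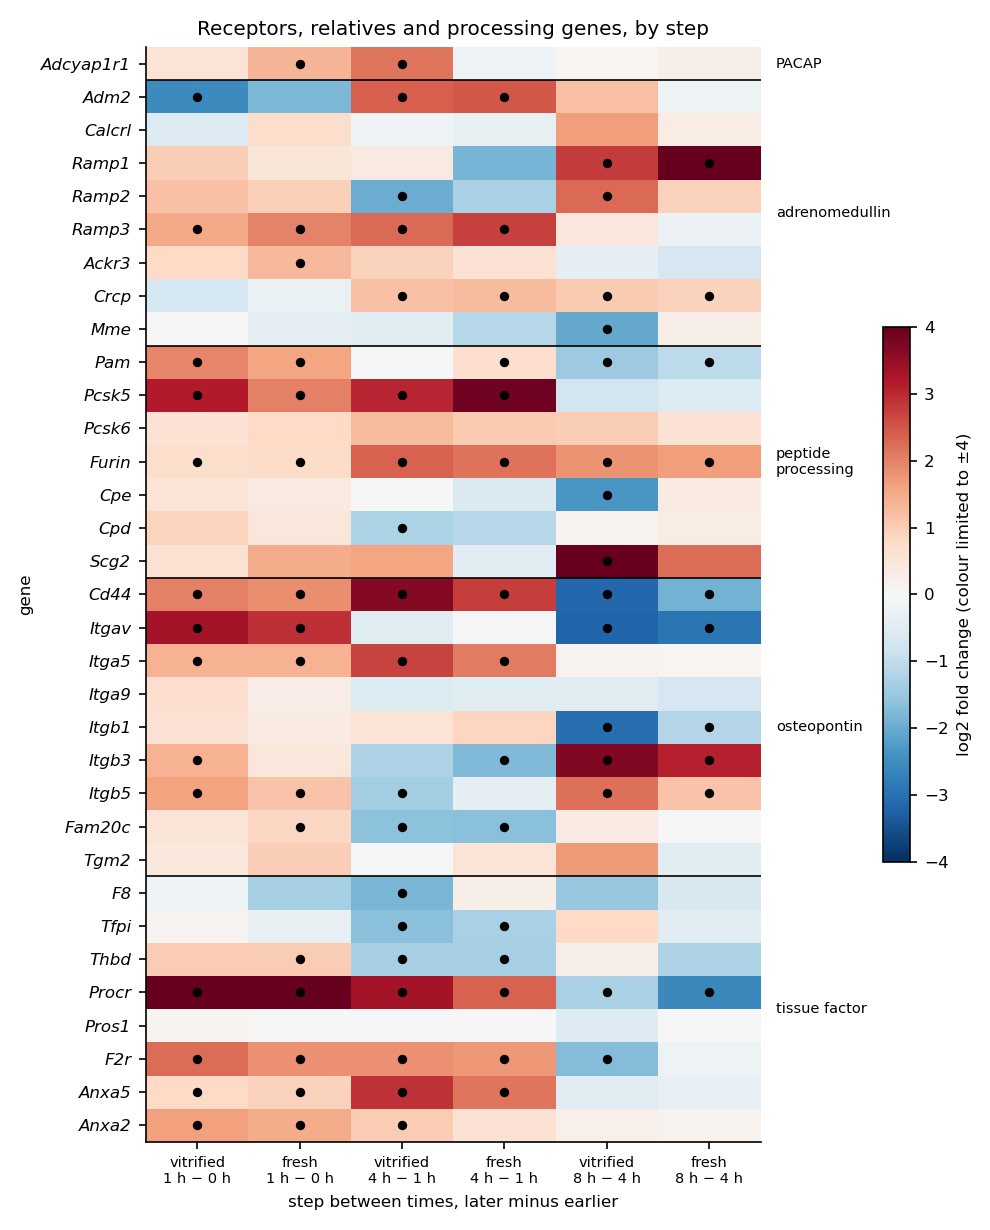
Log2 difference of the 33 tested pathway genes (rows, grouped by list) over the 3 steps between times in vitrified and in fresh follicles (columns). A dot marks a change at an edgeR adjusted p under 0.05, and the colour scale ends at 4 in either direction; Procr and Itgav show the largest gains from 0 to 1 h, and Itgav, Itgb1 and Cd44 the largest losses from 4 to 8 h in vitrified follicles.

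Of the PACAP receptors, Adcyap1r1 was the only listed one tested, and it was low throughout. It averaged 2.64 ± 2.79 CPM in fresh follicles at 1 h against 0.953 ± 0.912 at 0 h (log2 difference 1.36 ± 0.55, adjusted p = 0.0381). In vitrified follicles it averaged 3.15 ± 2.24 CPM at 4 h against 0.758 ± 0.694 at 1 h (2.13 ± 0.77, adjusted p = 0.0174), a call lost without either of 2 of the 1 h follicles (adjusted p = 0.0592 and 0.0661). Vipr1 and Vipr2 were under the filter, with at most 1.24 and 1.38 CPM, unscaled, in any library. Of the neuromedin list none was tested. Nmur2 had at most 1.65 unscaled CPM in any library, and Nmur1 is not analysed here.

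Of the 8 tested genes of the adrenomedullin list, 1 rose and 1 fell from 0 to 1 h in vitrified follicles, and 3 rose and 1 fell in each of the later steps. In fresh follicles 2, 3 and 2 rose over the 3 steps and 0 fell. The list's median log2 differences were 0.42, 0.63 and 1.12 in vitrified and 0.59, 0.15 and 0.27 in fresh follicles. Calcrl, which encodes the receptor core, was not called in any step, while the genes of its partner proteins moved. Ramp3 rose from 1 to 4 h, with 7.86 ± 5.07 CPM at 4 h against 1.49 ± 1.68 at 1 h in vitrified follicles (2.26 ± 0.58, adjusted p = 0.000809) and 13 ± 7.96 against 1.95 ± 1.25 in fresh ones (2.73 ± 0.57, adjusted p = 3.3e-05). It also rose from 0 to 1 h in vitrified follicles (1.51 ± 0.62, adjusted p = 0.0395; 0.52, adjusted p = 0.612 without 1 follicle) and in fresh ones (1.98 ± 0.60, adjusted p = 0.00527). Ramp1, whose product with Calcrl forms the CGRP receptor, rose from 4 to 8 h in vitrified follicles, to 5.91 ± 2.77 CPM at 8 h against 0.775 ± 0.909 at 4 h (2.81 ± 0.59, adjusted p = 6.9e-05). In fresh follicles it averaged 4.39 ± 0.899 CPM at 8 h (adjusted p = 2.92e-07), where 1 of 7 follicles of 4 h had a count. Ramp2 fell in vitrified follicles from 1 to 4 h (-1.99 ± 0.81, adjusted p = 0.0367) and rose from 4 to 8 h (2.28 ± 0.86, adjusted p = 0.0283), both calls being lost without 1 follicle. Adm2, the gene of a related peptide, dipped at 1 h, when 2 of 5 vitrified and 2 of 6 fresh follicles had a count, too few for a fold. It fell from 0 to 1 h in vitrified follicles (adjusted p = 0.00625). It averaged 1.07 ± 0.624 CPM in vitrified and 1.47 ± 1.38 in fresh follicles at 4 h, and the step from 1 h passed in both (adjusted p = 0.0208 and 0.0129), the vitrified call being lost without 1 follicle (adjusted p = 0.0574).

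The peptide processing list holds genes whose products cut, trim or amidate such precursors, along with granin genes. Of the 7 tested, Pam, Pcsk5 and Furin rose and 0 fell from 0 to 1 h in each kind, when 21.5% of all genes were called higher in vitrified and 19% in fresh follicles. In vitrified follicles 2 rose and 1 fell from 1 to 4 h and 2 rose and 2 fell from 4 to 8 h, against 3 and 0 and then 1 and 1 in fresh ones. The list's medians over the 3 steps were 0.71, 1.28 and 0.11 in vitrified and 0.80, 0.66 and 0.32 in fresh follicles. Pam, whose product amidates the C-terminus of PACAP, adrenomedullin and neuromedin U, reached 89.5 ± 36.1 CPM at 1 h against 23.2 ± 9.39 at 0 h in vitrified follicles (1.94 ± 0.23, adjusted p = 2.12e-11) and 78.6 ± 7.89 against 26.1 ± 8.12 in fresh ones (1.59 ± 0.21, adjusted p = 1.25e-09). It rose again by 4 h in fresh follicles (0.66 ± 0.27, adjusted p = 0.0361) and fell from 4 to 8 h in vitrified (-1.45 ± 0.36, adjusted p = 0.00067) and fresh follicles (-1.05 ± 0.31, adjusted p = 0.00471). Pcsk5, a proprotein convertase gene, gained in both steps and averaged 2570 ± 681 CPM at 4 h in vitrified follicles and 2410 ± 1030 in fresh ones. The gain from 1 to 4 h was 3.05 ± 0.31 (adjusted p = 5.46e-14) in vitrified and 3.89 ± 0.30 (adjusted p = 1.44e-19) in fresh follicles. Furin, another convertase gene, rose in all 3 steps in both kinds, and its first gain in vitrified follicles (0.71 ± 0.19, adjusted p = 0.00129) was 0.39 (adjusted p = 0.107) without 1 follicle. Scg2, the gene of secretogranin II, was called higher from 4 to 8 h in vitrified follicles (4.01 ± 0.86, adjusted p = 0.000107), which rests on replicate 3 (1.14, adjusted p = 0.432 without it).

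Cpe, which encodes carboxypeptidase E, the enzyme that trims peptides after cleavage, was the gene of this list that differed between kinds. At 8 h it averaged 341 ± 81.9 CPM in vitrified follicles of the shared set (SD, n = 3) and 1330 ± 649 in fresh ones (n = 4), without overlap (log2 difference -1.96 ± 0.53, adjusted p = 0.0276). The call was lost without any 1 of 5 of the 7 follicles (adjusted p up to 0.183), with differences between -2.18 and -1.67. The vitrified-only set averaged 456 ± 333 CPM. Its step from 4 to 8 h also differed between the kinds, by -2.64 ± 0.64 (adjusted p = 0.0195).

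The osteopontin list holds CD44 and integrin genes, relatives, and Fam20c and Tgm2, whose products modify the protein. Of 9 tested, 5 rose and 0 fell from 0 to 1 h in each kind, with a median log2 difference of 1.38 in vitrified and 0.98 in fresh follicles. Over the next step, to 4 h, 2 rose and 2 fell in each kind (medians -0.47 and -0.07), and from 4 to 8 h 2 rose and 3 fell in each kind (0.13 and -0.43). Itgav, the integrin alpha V gene, averaged 472 ± 129 CPM at 1 h against 46.5 ± 17.5 at 0 h in vitrified follicles (3.34 ± 0.22, adjusted p = 5.69e-24) and 319 ± 123 against 41.5 ± 13.2 in fresh ones (2.93 ± 0.20, adjusted p = 5.15e-23). It fell from 4 to 8 h by 3.19 in vitrified (adjusted p = 1.42e-10) and by 2.93 in fresh follicles (adjusted p = 1.74e-11). Cd44 averaged 52.8 ± 41.9 CPM at 4 h in vitrified and 23.5 ± 11.1 in fresh follicles, after a rise from 1 h of 3.66 ± 0.53 (adjusted p = 1.18e-08) and 2.76 ± 0.51 (adjusted p = 3.87e-06). It fell again by 8 h, by 3.13 in vitrified (adjusted p = 2.54e-05) and by 1.90 in fresh follicles (adjusted p = 0.00242). Itga5 rose from 1 to 4 h as well, to 761 ± 224 CPM in vitrified follicles (2.71 ± 0.28, adjusted p = 5.27e-14). Itgb3, whose product pairs with integrin alpha V, rose when Spp1 was high, to 29.5 ± 15.1 CPM at 8 h against 2.21 ± 1.91 at 4 h in vitrified follicles (3.71 ± 0.69, adjusted p = 1.09e-05) and 21.1 ± 8.53 against 2.38 ± 1.45 in fresh ones (3.11 ± 0.66, adjusted p = 0.000108).

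Of this list, Itgb3 differed between kinds at 0 h, with 1.82 ± 1.51 CPM in vitrified (n = 15) and 5.69 ± 6.41 in fresh follicles (n = 18), overlapping (-1.58 ± 0.42, adjusted p = 0.0431). The call was lost with no filter on low counts (-1.59, adjusted p = 0.0614) and with limma (-0.26, adjusted p = 0.122), whose 2 calls at 0 h are other genes. The median macrophage sum at 0 h, given with Spp1, was lower in vitrified follicles too, and their part in it was not tested. Itgb1, the integrin beta 1 gene, averaged 38.6 ± 26.3 CPM in vitrified and 144 ± 83.6 in fresh follicles at 8 h (-1.90 ± 0.54, adjusted p = 0.0382). The call was lost without any 1 of 4 follicles, and without replicate 3 the difference was -1.39 (adjusted p = 0.447). The vitrified-only set averaged 238 ± 83.1 CPM, and with both sets pooled the difference turned to 0.39 (adjusted p = 0.691), so its direction depends on the library set. Itgb1 fell from 4 to 8 h in vitrified follicles (-3.02 ± 0.54, adjusted p = 5.46e-06), and in fresh ones (-1.17 ± 0.43, adjusted p = 0.0262), where the call was lost without 1 of 2 follicles.

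The tissue factor list holds clotting factors, their inhibitors and thrombin's receptors. Of 8 tested, 4 rose and 0 fell from 0 to 1 h in vitrified follicles and 5 rose and 0 fell in fresh ones (medians 0.90 and 0.96). By 4 h 4 rose and 3 fell in vitrified and 3 rose and 2 fell in fresh follicles (0.50 and 0.40). By 8 h 2 fell in vitrified and 1 in fresh follicles and 0 rose (-0.47 and -0.37). Procr, the gene of the protein C receptor, was the member of the 6 lists with the largest gain in that step. At 0 h its mean was 0.302 CPM in vitrified and 0.354 in fresh follicles. It averaged 16.3 ± 9.94 CPM at 1 h in vitrified follicles (5.55 ± 0.52, adjusted p = 3.13e-15) and 34.2 ± 12.2 in fresh ones (6.10 ± 0.42, adjusted p = 6e-22). It rose further to 167 ± 69.5 CPM at 4 h in vitrified follicles (3.33 ± 0.47, adjusted p = 7.05e-09) and 174 ± 69.6 in fresh ones (2.35 ± 0.41, adjusted p = 1.86e-06). By 8 h it fell to 67.4 ± 63.2 CPM in vitrified follicles (-1.30 ± 0.50, adjusted p = 0.0356), a call lost without either of 2 follicles, and to 29 ± 7.45 CPM in fresh ones (-2.57 ± 0.49, adjusted p = 1.38e-05). Procr thus had its highest mean when F3 was already below its own.

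F2r, the gene of the thrombin receptor PAR1, rose from 0 to 1 h in vitrified (2.24 ± 0.35, adjusted p = 1.59e-07) and fresh follicles (1.83 ± 0.32, adjusted p = 1.72e-06) and again by 4 h, to 58.6 ± 14.9 CPM and 57.5 ± 16.9 CPM. It was called lower from 4 to 8 h in vitrified follicles (-1.72 ± 0.47, adjusted p = 0.00255), which was lost without replicate 3 (adjusted p = 0.06). Thbd, the thrombomodulin gene, fell from 1 to 4 h in vitrified (-1.34 ± 0.57, adjusted p = 0.0457; -0.71, adjusted p = 0.354 without 1 follicle) and fresh follicles (-1.33 ± 0.53, adjusted p = 0.0341). Tfpi, which encodes the direct inhibitor of tissue factor with factor VIIa, was low and fell in that step too, to 1.23 ± 0.901 CPM against 4.00 ± 1.63 in vitrified follicles (-1.67 ± 0.55, adjusted p = 0.00937) and 1.24 ± 0.841 against 3.18 ± 1.82 in fresh ones (-1.31 ± 0.57, adjusted p = 0.0496). Anxa5, the gene of the phosphatidylserine-binding annexin A5, rose from 1 to 4 h to 1440 ± 334 CPM in vitrified (2.90 ± 0.25, adjusted p = 1.27e-17) and 1100 ± 243 in fresh follicles (2.14 ± 0.22, adjusted p = 7.34e-14). Tfpi2 had at most 0.931 unscaled CPM in any library, and F7, F10 and F2rl1 are not analysed here.

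Between the library sets of vitrified follicles at 8 h, 4 of the 33 pathway genes were higher and 8 lower in the vitrified-only set, 12.1% and 24.2%, where 23.4% of all genes were called in either direction, with a median log2 difference of -0.62 against -0.10 over all genes. Of the adrenomedullin list, Ramp1 was higher there, with 39.9 ± 13.2 CPM (SD, n = 9) against 5.91 ± 2.77 (n = 3) in the shared set (2.73 ± 0.51, adjusted p = 3.53e-05), and Adm2 was lower, with 0.253 ± 0.286 CPM against 2.42 ± 1.28 (-3.09 ± 0.68, adjusted p = 0.0004). Neither overlapped between the sets. Itgav (2.81 ± 0.37, adjusted p = 1.98e-08), Itgb1 (2.63 ± 0.52, adjusted p = 9.84e-05) and F2r (2.52 ± 0.49, adjusted p = 5.76e-05) were higher as well. At 1 h 0 were higher and 2 lower, Furin and Itgb5, where 1.37% of all genes were called in either direction.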

How the data were processed

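RNA of 83 single follicles was analysed in 8 groups taken from the labels, with no sample left out. The authors deposited estimated counts per gene, of which 82.8% were whole numbers, and log2(TPM + 1) values for the same libraries. The submitters' processing notes name Partek, Bowtie2, HISAT2, DESeq2 and mm10 with neither version nor role, and the treatment of reads shared by several genes is not stated in the sources used here. Counts were rounded and fitted with edgeR 4.0.16 (R 4.3.3; TMM, filterByExpr with a minimum count of 10, robust quasi-likelihood F test, 11889 genes kept) with 1 mean for each of the 10 combinations of group and library set. P-values were adjusted by Benjamini-Hochberg over all genes kept and read at 0.05. SE were derived from the F statistic. TPM was taken back from the deposited log2 values. The script was tested on simulated counts.

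The 5 genes and the pathway lists were chosen with earlier results of these data known. Pathway genes are named where called between vitrified and fresh follicles, where among the 6 largest changes called in a step between times, or as ligand receptors, integrins, enzymes and clotting genes picked for their role. The 3 genes most like each of the 5 are also named. The set comparison was added after the values were seen, with no test for the 5 genes, and its further genes were named after theirs were. No pair of libraries was identical, and Pearson's r of log2 CPM within a group and set lay between 0.857 and 0.968. Depth ran from 682200 to 6504588 counts. PCR copies are counted without molecular identifiers, so intervals cover counting error only. Alternatives were total-count scaling, no filter, an additive or no set term, the compared libraries only, DESeq2 1.42.0, limma 3.58.1 on log2(TPM + 1), and leaving out single libraries. Correlations used scipy 1.17.1.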

Additional observations from a re-analysis of the deposited data

Results flagged for a closer look

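Of 35 sets of 4 to 10 libraries examined for a far value, 3 held one. Chance alone flags about 1 in 20 if values follow a normal distribution. CPM is skewed and often 0 here, and the rate for such values was not examined. Adcyap1 in vitrified follicles of 4 h had a highest value of 1860 CPM, far above the other 6. Spp1 in the same group had a highest value of 13.4 CPM. Adm in the 1 h follicles of the vitrified-only set had a highest value of 2.92 CPM, a matter of a few counts. Between vitrified and fresh follicles, the change of Cpe from 4 to 8 h differed by -2.64 on the log2 scale (edgeR adjusted p = 0.0195).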

How the results depend on the processing

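No paired analysis was possible because the labels give no replicate numbers that groups share. Each of the 5 genes kept its time of highest level under the 4 alternatives run in vitrified and the 3 run in fresh follicles (TPM, median, total counts and, in vitrified follicles, both sets pooled). The pooled mean of Adm at 8 h, 6.46 CPM, was carried by the shared set, and the pooled median was 1.62 CPM. The count of 1 pathway gene between vitrified and fresh follicles at 0 h was 0 with no filter, 0 with only the compared libraries and 2 with limma. The count of 0 at 1 h was 1 with no set term, and the count of 0 at 4 h was 1 with limma. The count of 2 at 8 h was 0 with no filter, 1 with an additive set term, 1 with only the compared libraries and 4 with limma, and lay between 0 and 2 with single libraries left out. Between sets at 8 h the 12 pathway genes were 7 to 11 with single libraries left out. Nmu at 8 h was -0.77 without replicate 3 (range -0.77 to 1.92) between kinds, and -2.62 to 0.07 between sets. Between sets, Adcyap1 was 2.08 with total counts and 1.51 to 2.98 with libraries left out, and F3 -0.99 to 0.19. Over all genes, the 115 called at 0 h were 183 with total counts, 184 with DESeq2 and 1553 with limma. The 66 at 1 h were 29 with total counts, 251 with no set term, 4 with only the compared libraries, 9 with limma and 7 to 105 with libraries left out (7 without vitrified replicate 4). The 14 at 4 h were 23 with DESeq2 and 28 with limma. The 245 at 8 h were 121 with an additive term, 726 with no set term, 403 with DESeq2, 454 with limma, and 43 to 264 with libraries left out (43 without vitrified replicate 3). The 2779 between sets at 8 h were 1177 to 2553. The cause of these shifts was not tested. Groups of 3 and 4 follicles at 8 h, and sums of a few counts before a gene's peak, limit what these data can separate.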
